A study of Mus musculus with 2 samples.

Results

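The transcripts of 8 heat shock and chaperone genes were followed in single cells of mouse brain: Hspa1a, Hspa1b, Hspb1, Dnajb1, Hsp90aa1, Hsph1, Hspa8 and Hspa5. They were taken by name from the 55401 genes of the deposited count tables, not by their values. The mice were C57BL/6J, 10 weeks old. The metastasis group had received an intracranial injection of B16/F10-BrM cells, a mouse melanoma line, and the naive group, by its title, had not. Each group was 1 library prepared from 3 brains pooled together, so variation from animal to animal could not be measured and no test was made. Thus every interval below is at 95% and covers counting error only. In both groups the brains were dissociated into single cells, freed of myelin on a Percoll gradient and enriched for astrocytes with magnetic beads that bind ACSA-2, a surface antigen of astrocytes.

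Heat shock proteins are chaperones, which hold unfolded proteins and help them fold or lead them to degradation. Their best known regulator, heat shock factor 1, binds repeated nGAAn units in promoters when unfolded protein builds up in the cytosol, and it strongly induces Hspa1a, Hspa1b, Hspb1, Dnajb1 and Hsph1. Hsp90aa1 is the inducible cytosolic HSP90, and Hspa8 is made in most cells without stress. Hspa5 (BiP) works in the lumen of the endoplasmic reticulum and is induced by the separate unfolded protein response. Warm enzymatic dissociation of tissue is itself known to induce several of these genes together with immediate early genes such as Fos and Jun, so levels in dissociated cells are not levels in the intact brain.

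A barcode was used with at least 1000 unique molecular identifiers (UMIs, each counting 1 captured transcript), at least 500 genes and at most 20% mitochondrial UMIs. The metastasis file held 89193669 UMIs and the naive file 69445557. After doublet removal 13282 and 13310 cells remained, with medians of 2830.5 and 2773 UMIs. Cells were clustered without the 8 genes and without the other stress genes listed below, and clusters were named from marker genes. These rebuilt names need not match those of the study. With at least 50 cells in each library, 10 classes could be named and 3 clusters stayed unnamed: cluster 0, led by Igkc, Igha, MHC class II genes, Il1b and S100a8; cluster 4, led by Ccn3 and Slc47a1; and cluster 18, led by Chga, Sox11 and Cga. Macrophage and monocyte-like cells (1298), melanoma-like cells (711) and cluster 21 (117), in which oligodendrocyte, globin and microglia genes led together, reached 50 cells in metastasis only. The naive library held 18 melanoma-like cells, with a median of 31699.5 UMIs; how they came there was not tested. Although the beads select astrocytes, 337 cells in metastasis and 1059 in naive were astrocyte-like, and oligodendrocyte-like cells were the most numerous class. Levels are CPM, a gene's UMIs scaled to 1000000 UMIs of the class. Free RNA, the CPM in barcodes with 10 to 100 UMIs, stands beside them, because droplets take up transcripts of broken cells. The submitters had exchanged the titles of both records, and grouping here uses their latest form. Pmel, a pigment gene of melanoma, had 156474 UMIs in metastasis and 3634 in naive in barcodes of at least 500 UMIs. Among kept barcodes, 49 occurred in both libraries, and leaving them out moved none of the 103 ratios below outside its counting interval.

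Hspa1a (ENSMUSG00000091971.3) and Hspa1b (ENSMUSG00000090877.3) encode the stress-inducible cytosolic HSP70 and lie on the minus strand of chromosome 17 of GRCm38, at chr17:34969190-34972156 and chr17:34956436-34959238, 9951 bases apart. Their promoters are shown because both genes had nearly the same order of levels across classes. Those of Hspb1, Hsph1 and Hspa5 are shown because their levels followed other classes. Each is the 250 bases before the start site in RefSeq (GRCm38.p6), written in the direction of the gene. Capitals mark a pair of inverted heat shock units, GAANNTTC, which face each other, or TTCNNGAA, which face away. In Hspa5 they mark the endoplasmic reticulum stress element, CCAAT and CCACG with any 9 bases between them. Both strands were searched.
Hspa1a, chr17:34972157-34972406, minus strand: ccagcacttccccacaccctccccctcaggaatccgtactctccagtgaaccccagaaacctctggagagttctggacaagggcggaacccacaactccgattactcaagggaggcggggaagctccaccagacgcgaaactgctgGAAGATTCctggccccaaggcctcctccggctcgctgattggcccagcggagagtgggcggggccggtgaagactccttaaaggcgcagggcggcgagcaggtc
Hspa1b, chr17:34959239-34959488, minus strand: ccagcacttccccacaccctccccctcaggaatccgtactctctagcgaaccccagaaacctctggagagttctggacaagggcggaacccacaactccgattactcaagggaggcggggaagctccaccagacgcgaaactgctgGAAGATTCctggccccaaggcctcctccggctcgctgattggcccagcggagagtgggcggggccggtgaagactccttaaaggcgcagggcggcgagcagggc
Hspb1, chr5:135887669-135887918, plus strand: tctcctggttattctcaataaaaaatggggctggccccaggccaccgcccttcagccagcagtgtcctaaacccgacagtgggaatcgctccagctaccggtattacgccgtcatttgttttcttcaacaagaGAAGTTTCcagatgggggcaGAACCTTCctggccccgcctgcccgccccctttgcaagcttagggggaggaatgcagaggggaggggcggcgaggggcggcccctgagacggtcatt
Hsph1, chr5:149636337-149636586, minus strand: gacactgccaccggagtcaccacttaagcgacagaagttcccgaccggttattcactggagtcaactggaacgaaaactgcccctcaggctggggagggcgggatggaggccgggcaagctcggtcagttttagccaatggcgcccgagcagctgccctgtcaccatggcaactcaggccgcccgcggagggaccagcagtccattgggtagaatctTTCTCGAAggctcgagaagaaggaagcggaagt
Hspa5, chr2:34771840-34772089, plus strand: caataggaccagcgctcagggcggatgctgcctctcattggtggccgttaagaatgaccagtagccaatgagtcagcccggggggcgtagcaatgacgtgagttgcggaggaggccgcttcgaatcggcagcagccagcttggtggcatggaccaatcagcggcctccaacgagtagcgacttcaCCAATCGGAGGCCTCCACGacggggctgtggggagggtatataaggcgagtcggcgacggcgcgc
The Hspa1a and Hspa1b windows differed at 3 of 250 positions, and both held GAAGATTC with its first base 104 bases before the start. Hspb1 held 2 pairs of the form GAANNTTC, 117 and 97 bases before the start, and Hsph1 held 1 of the form TTCNNGAA, at 33 bases. The Hspa5 window held the stress element at 65 bases. For Hspa5 and Hsph1 the RefSeq start lies 120 and 40 bases inside the gene as annotated in GENCODE. Their marked stretches are thus upstream of the RefSeq start but inside the annotated gene. Of 32851 mouse promoter windows of the same length, 12.8% held either pair and 0.113% the stress element, so a pair alone is a common match. The table held promoters of 6 of the 8 members. The sixth, Dnajb1, had neither motif, which says only that these letters are not in its window. A match describes letters and is not a measured binding site.

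Sequencing from the 3' end can mix copies of a gene, so the last 500 bases of each member's transcripts were compared with all other transcripts of the annotation in windows of 90 bases. No window of Hspa1a, Hspa1b, Dnajb1, Hsph1 or Hspa5 occurred in another gene, so the 2 HSP70 genes could be counted apart at their 3' ends. For Hspb1 34.9% of windows also occurred in the pseudogene Hsp25-ps1, for Hsp90aa1 18.7% in 2 other genes, and for Hspa8 60.6% in Gm15459 or further copies. Levels of these 3 genes are therefore uncertain where the authors' counting could assign such reads elsewhere. Hspa1a overlaps Gm20481 on the opposite strand over 2225 bases, and whether counting used the strand is not given in the sources used here.

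Hspa1a was highest in microglia-like cells and cluster 0. In microglia-like cells it reached 1530.4 CPM (1442 to 1622) in metastasis and 1972 CPM (1890.2 to 2056) in naive, and in cluster 0 719 CPM (677 to 762) and 2372 CPM (2179.9 to 2577). Next in naive came T and NK cell-like cells at 821 CPM and endothelial-like cells at 786 CPM, which did not differ beyond counting error, and then mural-like cells at 541 CPM. In metastasis these 3 classes stood at 167, 184 and 159 CPM, and the places behind cluster 0 were taken by olfactory ensheathing-like cells (359 CPM), cluster 21 (351 CPM) and fibroblast-like cells (326 CPM), whose intervals overlapped from each to the next. Macrophage and monocyte-like cells of the metastasis library had 215 CPM, below cluster 0 and far below microglia-like cells.

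Oligodendrocyte, ependymal, choroid plexus and astrocyte-like cells were low. Oligodendrocyte-like cells had 132 and 87.3 CPM in the metastasis and naive libraries, ependymal-like cells 72.1 and 50.3 CPM, and choroid plexus epithelium-like cells 44.5 and 23.3 CPM. Astrocyte-like cells, the class the beads were meant to enrich, had 32.8 CPM (20.04 to 50.7) and 15.7 CPM (10.9 to 21.96), from 20 and 34 UMIs. Melanoma-like cells were lowest of all, at 7.38 CPM (6.27 to 8.63), although their median depth was 29336 UMIs. Free RNA held 202 CPM in metastasis and 158 CPM in naive. From the markers of other classes, free RNA was put at part of each class's UMIs, which would give 63.2 and 53.5 CPM of Hspa1a in astrocyte-like cells, more than was measured there, and 12.1 CPM in melanoma-like cells. In ependymal-like cells the estimate was 61.1 and 65.1 CPM and in choroid plexus epithelium-like cells 39.5 and 23.3 CPM. By this estimate, the Hspa1a of astrocyte-like, melanoma-like and choroid plexus epithelium-like cells was not above background beyond counting error. The same held for ependymal-like cells and cluster 18 in naive and for cluster 4 in metastasis. The free RNA level rests on 52 UMIs in metastasis (151 to 265 CPM) and 43 in naive (115 to 213 CPM). Barcodes with 100 to 300 UMIs held less Hspa1a, 119 and 94.7 CPM. Whether these classes stay at background with that lower level was not tested. In microglia-like cells the same estimate was 42.5 and 34.9 CPM, a small part of the level.

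**Figure D1:**
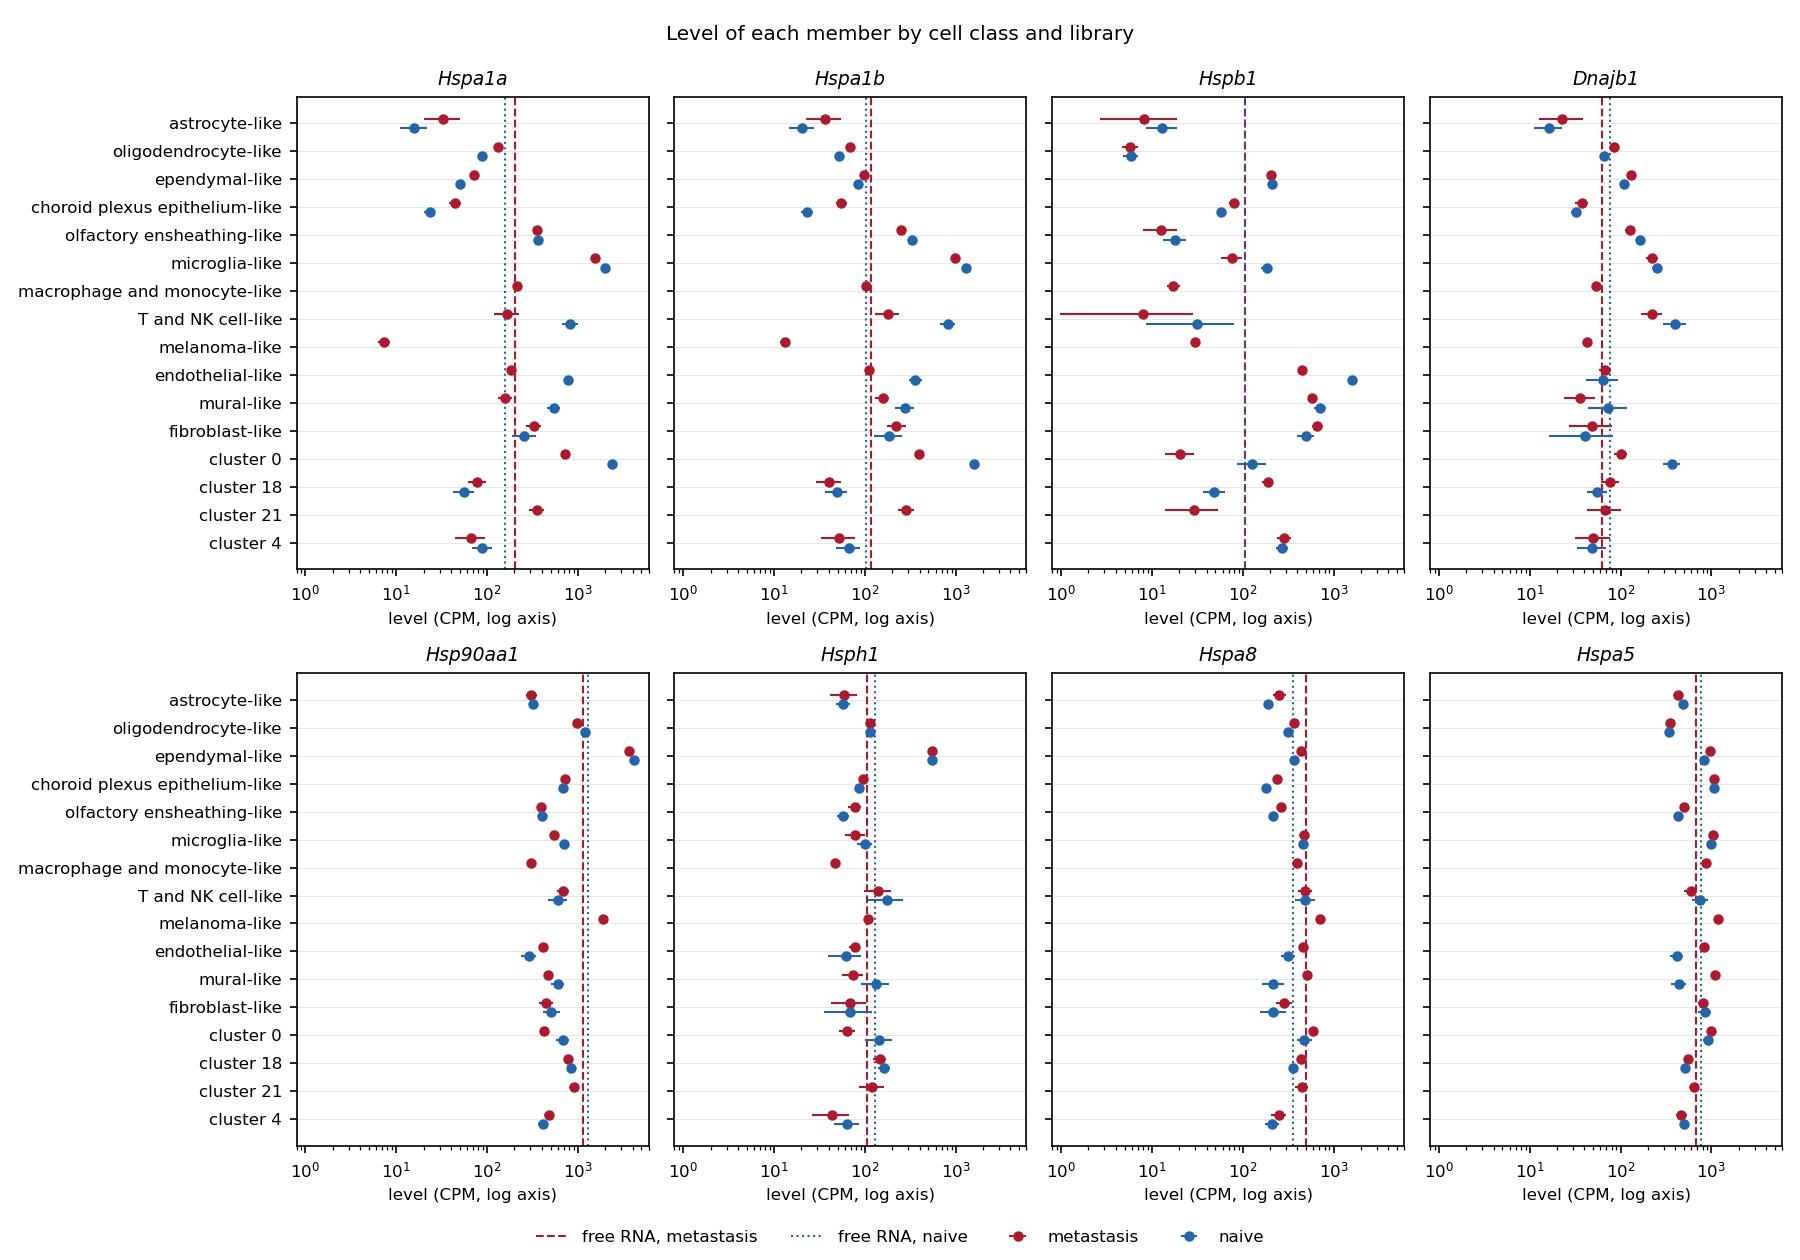
Level of each member (CPM, log axis) in each class with at least 50 cells, for the metastasis (red) and naive (blue) library, with 95% Poisson intervals; vertical lines mark free RNA. Hspa1a in microglia-like cells, at 1530.4 and 1972 CPM, lies far to the right of astrocyte-like cells, at 32.8 and 15.7 CPM, while Hspa8 and Hspa5 vary little between classes.

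Hspa1b had nearly the same order. Across 29 points, each a class in a library, log2 levels of Hspa1a and Hspa1b correlated with r = 0.97; the points share libraries and depth, and this is a description. Microglia-like cells had 977 CPM (907 to 1051) in metastasis and 1285 CPM (1219.7 to 1354) in naive, cluster 0 398 and 1611 CPM, and olfactory ensheathing-like cells 250.1 and 333 CPM. The lowest classes were again melanoma-like cells (13.1 CPM) and astrocyte-like cells (36.1 and 20.3 CPM), beside free RNA of 117 and 103 CPM.

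The HSP70 pair was found in some cells of a class and not in others. After each cell was thinned to 1000 UMIs, Hspa1a was found in 46.05% and 49.2% of cells (53.5% and 54.6% before thinning) among microglia-like cells, in 17.1% and 15.6% of cells (21.8% and 22.9% before thinning) among olfactory ensheathing-like cells and in 9.94% and 6.66% of cells (20.3% and 15.2% before thinning) among oligodendrocyte-like cells. In the background classes it was found in 2.97% and 0.944% of astrocyte-like cells and in 1.13% of melanoma-like cells (15.5% before thinning). The 10% of olfactory ensheathing-like cells with most UMIs of Hspa1a in thinned counts held 79.2% and 76.8% of them, against 43.8% and 44.7% in microglia-like cells. The variance of the thinned count over its mean was 4.66 and 3.34 in olfactory ensheathing-like cells and 3.84 and 4.65 in microglia-like cells, where 1 would be plain counting.

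Cells with Hspa1a also tended to hold Hspa1b. Among microglia-like cells of the metastasis library Hspa1b was found in 61.8% (54.7 to 68.5%) of cells with Hspa1a and in 22.2% (17.1 to 27.98%) of cells without it, and in naive in 64.2% (58.5 to 69.6%) and 21.5% (17.05 to 26.5%). Olfactory ensheathing-like cells gave 46.9% against 9.68% in metastasis and 49.7% against 11.5% in naive, and oligodendrocyte-like cells 13.2% against 4.82% and 13.04% against 3.53%. Dnajb1, the J-domain partner of HSP70, followed in olfactory ensheathing-like cells, with 21.6% against 6.62% in metastasis and 25.97% against 6.45% in naive. In microglia-like cells Dnajb1 gave 22.5% against 10.04% and 23.8% against 11.2%, but it did not separate beyond counting error in oligodendrocyte-like cells (7.63% against 6.06% in metastasis) or ependymal-like cells (8.18% against 11.7%). Fos, an immediate early gene, was found in olfactory ensheathing-like cells in 72.2% of cells with Hspa1a and 31.2% of those without in metastasis, and in 68.5% and 27.3% in naive. In microglia-like cells Fos gave 78.4% against 73.2% in metastasis, with overlapping intervals, and 69.9% against 53.2% in naive. Hsph1 did not separate in the olfactory ensheathing-like cells, at 6.79% against 6.24% and 6.63% against 5.12%, with overlapping intervals. The class holds clusters 9 and 10, which had 428 and 272 CPM of Hspa1a in metastasis and 483 and 236 CPM in naive, and the part of this mixture in the co-detection was not tested.

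**Figure D2:**
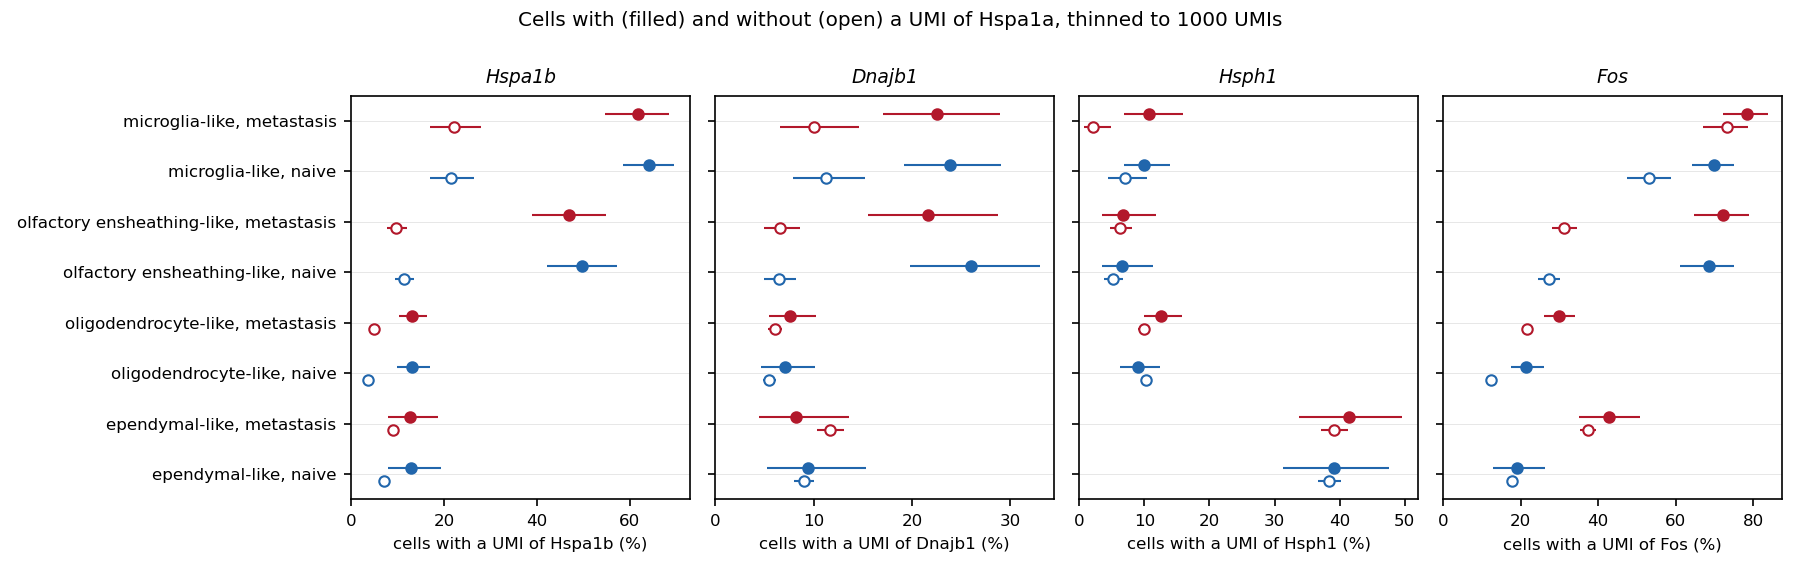
Share of cells (%) with a UMI of Hspa1b, Dnajb1, Hsph1 or Fos among cells with (filled) and without (open) a UMI of Hspa1a, each cell thinned to 1000 UMIs, with exact 95% intervals, for metastasis (red) and naive (blue). Hspa1b separates widely in microglia-like and olfactory ensheathing-like cells, with 46.9% against 9.68% in the latter in metastasis, and Hsph1 lies close together there.

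Hspb1 (ENSMUSG00000004951.10, chr5:135887919-135889563), which encodes the small heat shock protein HSP27 that binds unfolded proteins without ATP, was highest in fibroblast-like, mural-like and endothelial-like cells. Endothelial-like cells had 451 CPM (427 to 476) in metastasis and 1612 CPM (1489 to 1743) in naive, mural-like cells 586 and 708 CPM, and fibroblast-like cells 665 and 499.7 CPM. Cluster 4 had 287 and 272 CPM and ependymal-like cells 207 and 213 CPM, which overlapped cluster 18 in metastasis (189 CPM) and microglia-like cells in naive (185 CPM). Oligodendrocyte-like cells had the lowest level, 5.77 CPM (4.68 to 7.05) and 5.88 CPM (4.82 to 7.10), and astrocyte-like cells 8.20 and 12.9 CPM, beside free RNA of 105 and 107 CPM. It thus did not follow Hspa1a across classes (r = 0.22 over the 29 points). After thinning, 72.6% of endothelial-like cells had a UMI of Hspb1 in naive and 32.3% in metastasis (91.5% and 71.7% before thinning), against 0.67% and 0.569% of oligodendrocyte-like cells.

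Dnajb1 (ENSMUSG00000005483.10, chr8:83608193-83612653), which encodes the HSP40 that hands clients to HSP70 and stimulates its ATPase, was highest in T and NK cell-like cells, microglia-like cells and, in naive, cluster 0, and its levels followed those of Hspa1a (r = 0.71 over the 29 points). T and NK cell-like cells had 222 CPM (168 to 289) in metastasis and 395 CPM (293 to 520.3) in naive, and microglia-like cells 225 and 250.1 CPM. Cluster 0 had 101 and 368 CPM. Macrophage and monocyte-like cells of metastasis had 53.7 CPM (48.7 to 59.0). Free RNA held 62.3 CPM and was put at a share of 0.143 of the UMIs of this class, so it would give a small part of that level. Olfactory ensheathing-like cells (128 and 165 CPM) and ependymal-like cells (132 and 110.2 CPM) followed, and astrocyte-like cells were last with 22.97 and 16.2 CPM, where free RNA would give 19.4 and 26.1 CPM, so the level there was not above background. In metastasis, the classes from ependymal-like cells down to astrocyte-like cells formed a chain in which each interval overlapped the next.

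Hsp90aa1 (ENSMUSG00000021270.13, chr12:110690605-110702728), the inducible cytosolic HSP90 that matures kinases and hormone receptors, and Hsph1 (ENSMUSG00000029657.15, chr5:149614287-149636376), the HSP110 that exchanges nucleotide on HSP70, both peaked in ependymal cells, the ciliated lining of the ventricles. Hsp90aa1 in ependymal-like cells was 3666 CPM (3625 to 3707) in metastasis and 4146 CPM (4112 to 4181) in naive. It was 1894 CPM (1875 to 1912) in melanoma-like cells, 981 and 1189 CPM in oligodendrocyte-like cells, and 308 and 321 CPM in astrocyte-like cells. Free RNA held 1137 and 1279 CPM, above all but 2 classes in metastasis and all but 1 in naive. The astrocyte-like level was under the 355 and 432 CPM expected from free RNA alone.

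Hsph1 stood at 542 CPM (526 to 558) and 546 CPM (534 to 559) in ependymal-like cells, apart from every other class. The next were cluster 18 at 146 and 163 CPM and T and NK cell-like cells at 139 and 174 CPM, and below them the intervals of neighbours overlapped down to the lowest class in both libraries. The 3 ependymal-like clusters were unequal. Cluster 16, led by dynein and Cfap genes, had 1985 and 2310.3 CPM of Hsp90aa1 and 429 and 411 CPM of Hsph1, while cluster 6 had 3870.2 and 4364 CPM and 543 and 563 CPM. Cluster 5, which held 983 cells in metastasis and 21 in naive and was led by Cd24a, Tmem212, C3 and Ifit3 among others, had 3855 CPM of Hsp90aa1 and 565 CPM of Hsph1 in metastasis. Across the 29 points the 2 genes correlated with r = 0.88, as a description.

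Hspa8 (ENSMUSG00000015656.17, chr9:40800984-40810087), the constitutive HSC70 that folds new proteins and uncoats clathrin vesicles, was the most even member. Its highest level, 716 CPM (705 to 728) in melanoma-like cells, was 3.04 times its lowest in metastasis, 236 CPM in choroid plexus epithelium-like cells. In naive it ran from 182 CPM in the same class to 489 CPM in T and NK cell-like cells, 2.70 times as high. For comparison, Hspa1a spanned 207-fold in metastasis and 151-fold in naive. Free RNA held 498 and 354 CPM of Hspa8.

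Hspa5 (ENSMUSG00000026864.13, chr2:34771970-34777547), the HSP70 of the endoplasmic reticulum, had its highest level in metastasis in melanoma-like cells, 1183 CPM (1168 to 1197), which overlapped mural-like cells, 1111 CPM (1039 to 1186). Mural-like cells had 438 CPM in naive, where choroid plexus epithelium-like cells led. Choroid plexus epithelium-like cells, which secrete cerebrospinal fluid, had 1069.9 and 1077 CPM, microglia-like cells 1038 and 991 CPM, ependymal-like cells 962 and 823 CPM and astrocyte-like cells 425 and 489.9 CPM. The lowest were oligodendrocyte-like cells, at 349.7 CPM (341 to 359) and 345 CPM (336 to 353). Hspa5 did not follow Hspa1a across the 29 points (r = 0.10).

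The libraries were then compared within each class, which asks how the members stood with and without a brain tumour. A member counted as higher or lower at 2-fold with at least 20 UMIs in both libraries together, a rule of size and not a test. Of 80 pairs of a member and a named class, 79 had enough UMIs; 5 were at least 2-fold higher in metastasis, 8 at least 2-fold lower and 66 within 2-fold. Of the 8 lower pairs, 7 were inducible genes in T and NK cell-like, endothelial-like or mural-like cells, and 3 of the 5 higher pairs were Hspa5 or Hspa8 in the 2 vessel classes. In those 2 classes many genes differed: 18.8% of all genes were at least 2-fold higher and 17.1% lower in endothelial-like cells, and 22.5% and 16.5% in mural-like cells. In the other 8 the shares ran from 2.3% (astrocyte-like) to 10.3% (T and NK cell-like) higher and from 0.744% (choroid plexus epithelium-like) to 3.6% (astrocyte-like) lower. With 1 library a group, a difference between the groups cannot be told apart from one between 2 preparations.

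**Figure D3:**
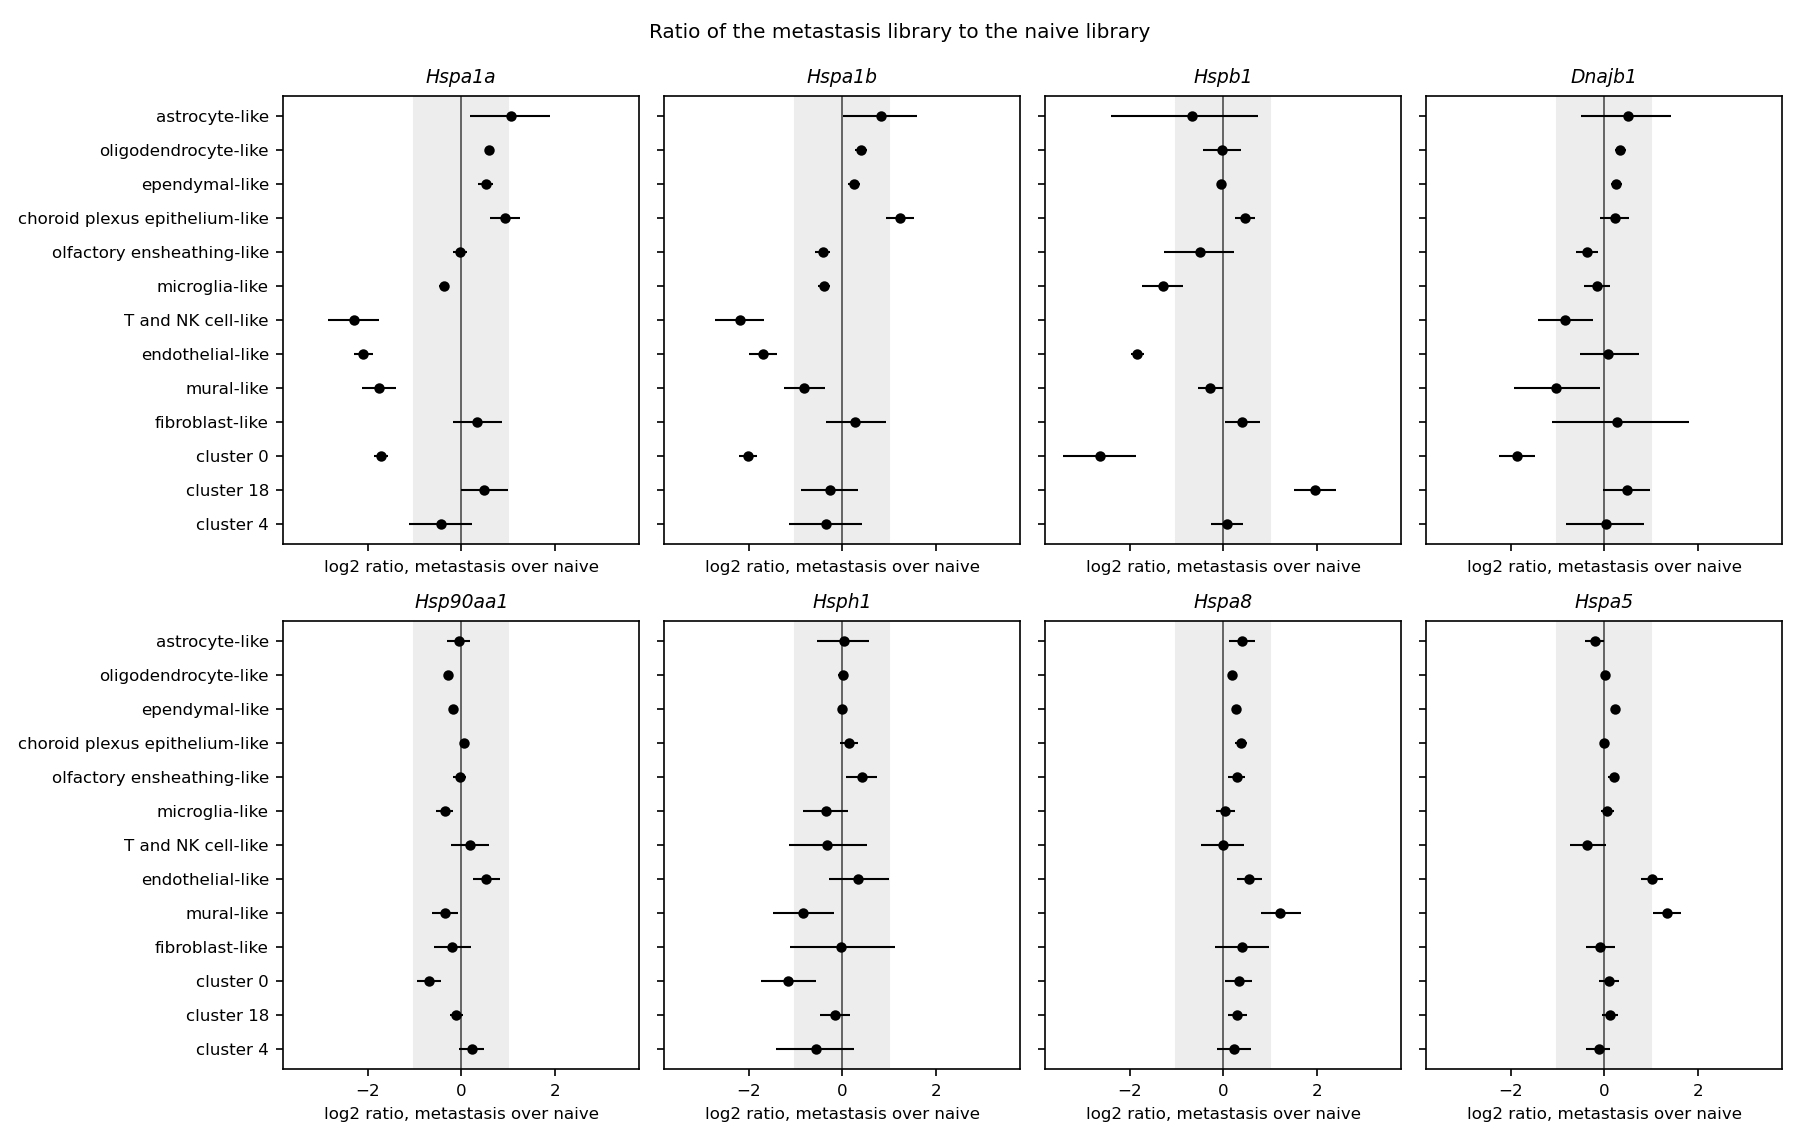
Log2 ratio of the metastasis library over the naive library for each member in the 10 named classes and 3 unnamed clusters compared, with exact 95% counting intervals; the grey band marks less than 2-fold. Hspa1a lies left of the band in T and NK cell-like (-2.30), endothelial-like (-2.10) and mural-like cells (-1.76) and in cluster 0 (-1.72), while Hspa8 lies on or right of 0 in nearly every class.

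Endothelial cells line the vessels. In endothelial-like cells, Hspa1a had 184 and 786 CPM in the metastasis and naive libraries, a log2 ratio of -2.10 (-2.30 to -1.89). Hspa1b had 111 and 361 CPM, a ratio of -1.70 (-1.99 to -1.40), and Hspb1 451 and 1612 CPM, a ratio of -1.84 (-1.98 to -1.70). Hspa5 went the other way, with 839 and 415 CPM and a ratio of 1.02 (0.79 to 1.26). So 3 of 8 members were lower, where 17.1% of all genes were, and 1 was higher, where 18.8% were. Dnajb1 had a ratio of 0.08 (-0.52 to 0.74) and Hsph1 0.33 with an interval that spans 0, so neither shared the direction of the HSP70 pair beyond counting error. The median depth was 5482 UMIs in metastasis and 2591 in naive. Over the marker lists, the 8 erythrocyte genes summed to 1341 and 15662 CPM, the 12 choroid plexus epithelium genes to 1927 and 11598 CPM and the 13 endothelial genes to 9001 and 22465 CPM, and the immediate early genes to 4187 and 8438 CPM; 1 erythrocyte gene was at 0 in each library and none of the other markers. With each cell named by its own markers, the Hspa5 ratio was 0.52 and that of Hspa1b -0.94.

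The libraries held different endothelial-like cells, and the part of that in the ratios of the class can be read only from the 1 cluster they share. Cluster 14, led by Igfbp3, Plvap and Cd93, had 164 cells in metastasis and 0 in naive. Cluster 17, led by Ly6c1, Slco1a4 and Cldn5, which are markers of brain capillaries, had 59 and 117. Within cluster 17, Hspa1a was 1026 CPM (899.9 to 1165) in metastasis and 786 CPM (700.1 to 878) in naive, so its ratio turned to 0.39. Hspa1b was 434 and 361 CPM, a ratio of 0.27, Hspb1 1404 and 1612 CPM, a ratio of -0.20, and Hspa5 421 and 415 CPM, a ratio of 0.02. In cluster 14 the levels were 109.8 CPM (97.5 to 123) for Hspa1a, 367 CPM (345 to 391) for Hspb1 and 876 CPM (841 to 913) for Hspa5. For these 4 members the ratio within cluster 17 was smaller in size than that of the class. For Hsp90aa1 it was larger, 0.76 against 0.54, at 485 and 287 CPM.

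**Figure D4:**
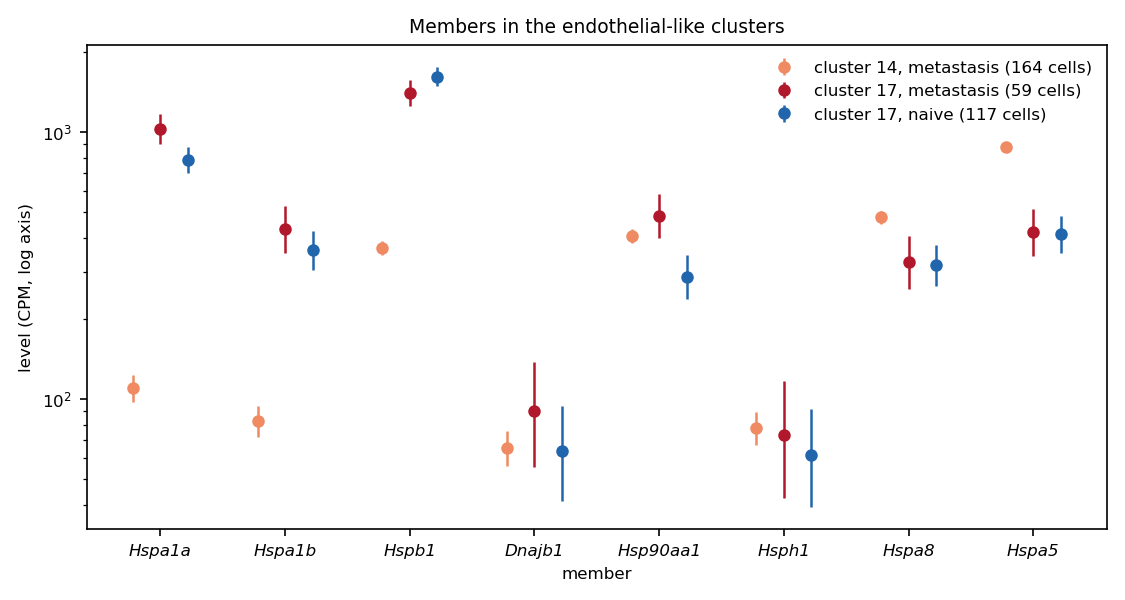
Level of each member (CPM, log axis) in endothelial-like cluster 14 of the metastasis library and in cluster 17 of both libraries, with 95% Poisson intervals. For Hspa1a the 2 libraries lie close together in cluster 17 (1026 and 786 CPM), and cluster 14 lies far below (109.8 CPM); for Hspa5 it lies above.

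Mural cells, the pericytes and smooth muscle around vessels, showed the same opposition in 1 cluster. Hspa1a had 159 and 541 CPM in the metastasis and naive libraries, a ratio of -1.76 (-2.13 to -1.40), and Dnajb1 36.1 and 73.7 CPM, a ratio of -1.03 (-1.93 to -0.10) from 29 and 18 UMIs. Hspa5 had 1111 and 438 CPM, a ratio of 1.34 (1.05 to 1.64), and Hspa8 506 and 217 CPM, a ratio of 1.22 (0.81 to 1.66). Free RNA was put at 228 and 410.4 CPM of Hspa5 and 166 and 189 CPM of Hspa8 in this class, so the naive levels were close to background. Of the 8 members 2 were thus higher, where 22.5% of all genes were, and 2 lower, where 16.5% were, which is close to the background. Without the cell with most UMIs in each library, the Dnajb1 ratio was -0.65, and with equal weight for each cell Hspa5 had 0.88 and Hspa8 0.95. The naive mural-like cells carried more RNA of other classes: the 12 oligodendrocyte genes summed to 2649 and 15329 CPM in metastasis and naive and the 12 choroid plexus epithelium genes to 4010.2 and 28229 CPM, of which 1 was at 0 in metastasis. Median depths were 3661.5 and 1570 UMIs. Immediate early genes summed to 3473 and 10152 CPM. The part of these in the ratios was not tested.

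T and NK cell-like cells had the lowest ratios of the HSP70 pair among the named classes. Hspa1a was 167 CPM (120.2 to 226) in metastasis and 821 CPM (671 to 995) in naive, a ratio of -2.30 (-2.85 to -1.77) from 42 and 104 UMIs, and Hspa1b 179 and 813 CPM, a ratio of -2.19 (-2.72 to -1.67). Thinned shares with Hspa1a were 12.3% and 24% of cells. Dnajb1 had a ratio of -0.83 (-1.40 to -0.25), and Hspa8 was level at 485 and 489 CPM. So 2 of 7 measured members were lower, where 3.14% of all genes were, and 0 higher, where 10.3% were. Oligodendrocyte genes summed to 10387 and 3284 CPM in metastasis and naive and choroid plexus epithelium genes to 9371 and 21848 CPM, no marker of either list was at 0, and the class held 122 and 75 cells. Immediate early genes summed to 5919 and 8833 CPM. Their part was not tested.

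Cluster 0 had 5 of 8 members lower, where 7.14% of all genes were, and 0 higher, where 10.4% were. Hspa1a was -1.72 (-1.87 to -1.57), Hspa1b -2.02 (-2.21 to -1.83) and Dnajb1 -1.87 (-2.25 to -1.47) on the log2 scale, Hspb1 -2.64 (-3.42 to -1.87) from 31 and 30 UMIs, and Hsph1 -1.16 (-1.74 to -0.56), while Hspa5 stood at 985 and 918 CPM. The cluster mixes immune cells, with 444 and 83 cells. Its macrophage and monocyte genes (15) summed to 20008 and 12820.5 CPM, with 0 and 2 of them at 0, its neutrophil genes (10) to 4628 and 6224 CPM, its microglia genes (12) to 2001 and 3125 CPM, and its immediate early genes to 13291 and 19256 CPM, and the part of these in the ratios was not tested. Without the cell with most UMIs in each library, Hsph1 had -0.97. Macrophage and monocyte-like cells could not be compared, since naive held 25, with 2323 CPM of Hspa1a against 215 CPM in the 1298 cells of metastasis.

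Microglia, the resident macrophages of the brain, differed little between libraries. Hspa1a had a ratio of -0.37 (-0.47 to -0.26), Hspa1b -0.40 (-0.53 to -0.27) and Hsp90aa1 -0.36 (-0.53 to -0.18), all lower in metastasis by less than 2-fold. Hspb1 was the 1 of 8 members past it, at 75.9 and 185 CPM and a ratio of -1.29 (-1.74 to -0.86), where 2.31% of all genes were lower. Its UMIs came from few cells, 4.97% and 8.31% after thinning, and with doublets kept the ratio was -0.73. In cells of at least 2000 UMIs Hspa1a had -1.51 and Hspa1b -1.57, and with each cell named by its own markers they had -1.67 and -1.74, so the size of this difference hung on which cells were counted. Immediate early genes summed to 27411 and 24749 CPM, the highest of the named classes compared.

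In astrocyte, choroid plexus epithelium, oligodendrocyte and ependymal-like cells Hspa1a and Hspa1b were higher in metastasis, mostly by less than 2-fold. Astrocyte-like cells had 1 of 8 members higher, Hspa1a at 1.06 (0.19 to 1.90), where 2.3% of all genes were, and 0 lower, where 3.6% were. Both levels are at background by the free RNA estimate given above, and without the cell with most UMIs in each library the ratio was 0.67. Choroid plexus epithelium-like cells also had 1 of 8 higher, Hspa1b at 54.9 CPM (47.7 to 62.9) and 23.3 CPM (19.99 to 27.02) and a ratio of 1.24 (0.94 to 1.53), where 6.16% of all genes were, with Hspa1a just inside 2-fold at 0.93 (0.62 to 1.25). Free RNA was put at 22.8 and 15.2 CPM of Hspa1b and 39.5 and 23.3 CPM of Hspa1a there. With each cell named by its own markers the Hspa1b ratio was 0.79. Oligodendrocyte-like cells had 0 of 8 higher (background 4.73%), but Hspa1a was 0.60 (0.51 to 0.69), Hspa1b 0.40 (0.27 to 0.52), Dnajb1 0.35 (0.24 to 0.46) and Hsp90aa1 -0.28 (-0.31 to -0.25), and all 3 oligodendrocyte-like clusters had Hspa1a higher in metastasis, at 0.42, 0.49 and 0.77. Ependymal-like cells (0 of 8 higher, background 3.8%, and 0 lower, background 1.28%) had 0.52 (0.36 to 0.68) for Hspa1a and -0.18 (-0.20 to -0.16) for Hsp90aa1. Their naive Hspa1a was at background by the free RNA estimate given above. Without cluster 5, which was nearly absent from naive, the Hspa1a ratio was 0.31 in cluster 6 and 0.57 in cluster 16. In each of these 4 classes the summed immediate early genes were higher in metastasis too, from 802 against 603 CPM in astrocyte-like cells to 3299 against 2125 CPM in ependymal-like cells, and their part was not tested.

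Olfactory ensheathing-like cells had 0 of 8 members past 2-fold, where 2.43% of all genes were higher and 1.34% lower. Hspa1a was -0.03 (-0.17 to 0.12) and Hspa1b -0.41 (-0.58 to -0.25). Fibroblast-like cells also had 0 of 8 (background 8.22% and 2.92%), and cluster 4 had 0 of 8 (background 4.44% and 3.06%). Cluster 18 had 1 of 8 higher, Hspb1 at 1.95 (1.51 to 2.42) from 196 and 54 UMIs, where 3.64% of all genes were. There 102 of the UMIs in metastasis came from 1 cell and 28 of those in naive. Thinned shares were 2.44% and 2.97%, and with equal weight for each cell the ratio was 0.49.

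Before any subtraction of free RNA, Hspa8 had the steadiest direction. It was higher in metastasis in 9 of the 10 named classes, by 0.19 (0.14 to 0.24) in oligodendrocyte-like, 0.27 (0.20 to 0.33) in ependymal-like, 0.38 (0.25 to 0.50) in choroid plexus epithelium-like, 0.28 (0.11 to 0.46) in olfactory ensheathing-like and 0.41 (0.13 to 0.68) in astrocyte-like cells, and 7 of the 10 intervals lay above 0. T and NK cell-like cells were the exception at -0.01 (-0.47 to 0.45). Free RNA differed in the same direction, 498 CPM against 354 CPM. With free RNA subtracted, the ratio was 0.21 in oligodendrocyte-like and 0.39 in ependymal-like cells. The same subtraction would lower it in choroid plexus epithelium-like cells, where free RNA was put at shares of 0.195 in metastasis and 0.147 in naive. It would also lower it in T and NK cell-like cells (0.246 and 0.190) and turn the direction in microglia-like cells, from 0.04. In fibroblast-like cells the free RNA estimate exceeded the Hspa8 level in both libraries. The part of free RNA in these small ratios was not tested further. Hsp90aa1 was lower in metastasis in 7 of the 10 named classes, with 4 intervals below 0 and 1 above, and never past 2-fold. Its free RNA was lower in metastasis too, 1137 against 1279 CPM, and its level was above the free RNA estimate in 13 of 16 classes and clusters in metastasis but 6 of 13 in naive. The part of free RNA here was not tested.

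The wider chaperone network was counted from 9 further lists, which with the members held 134 different genes of the files. In mural-like cells 11 of 18 measured endoplasmic reticulum chaperones and folding enzymes were at least 2-fold higher and 0 lower, with a median log2 ratio of 1.21 beside 0.12 over all genes; examples are Sdf2l1 (106 and 20.5 CPM, 2.37), Pdia6 (697 and 143 CPM, 2.28) and Manf (527 and 119 CPM, 2.15), each given as CPM in metastasis and naive and the log2 ratio. In endothelial-like cells 8 of 19 were higher and 1 lower, with a median of 0.84 beside -0.02, among them Sdf2l1 (82.5 and 12.8 CPM, 2.69) and the translocon subunit Sec61b (812 and 209.8 CPM, 1.95). Chaperonins and prefoldins, which fold actin, tubulin and mitochondrial proteins, were higher in 8 of 16 in mural-like and 6 of 16 in endothelial-like cells and 0 were lower, with Hspd1 (465 and 119 CPM, 1.97) and Hspe1 (522 and 147 CPM, 1.83) in mural-like cells. These shares stand beside the 22.5% and 18.8% of all genes given above. In metastasis 164 endothelial-like cells came from cluster 14, which held 0 cells in naive. Within cluster 17, held by both libraries, the member Hspa5 had 421 and 415 CPM, a log2 ratio of 0.02. Mural-like cells had median depths of 3661.5 and 1570 UMIs and free RNA shares of 0.332 and 0.536 in metastasis and naive. The part of these differences in the list counts of both classes was not tested.

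Of the small heat shock proteins, 2 of 3 measured in mural-like cells were lower in metastasis, where 16.5% of all genes were: Hspb2 (60.9 and 254 CPM, -2.06) and Cryab (442 and 1679 CPM, -1.93), of which Cryab is also abundant in oligodendrocytes. Hspa2, an HSP70 best known from testis, was lower in mural-like (58.5 and 205 CPM, -1.81) and endothelial-like cells (21.5 and 56.3 CPM, -1.39). In the 8 other named classes the lists of HSP70 partners, J-domain proteins, HSP90 and its cochaperones, chaperonins, endoplasmic reticulum chaperones and heat shock factors had at most 1 gene past 2-fold each. The unfolded protein and integrated stress response list had 2 of 14 higher in choroid plexus epithelium-like cells, Asns and Nupr1, each from 15 and 8 UMIs. The immediate early list had 10 of 17 higher in oligodendrocyte-like cells (median 1.03), 10 of 17 in choroid plexus epithelium-like cells (median 1.18), 6 of 17 in ependymal-like cells (median 0.75), 6 of 13 in astrocyte-like cells (median 0.97), and 4 of 15 in fibroblast-like cells. In endothelial-like cells 5 of 17 were lower and 1 higher, and in mural-like cells 11 of 17 were lower (median -1.48). Beside these, 4.73% of all genes were higher in oligodendrocyte-like, 6.16% in choroid plexus epithelium-like, 3.8% in ependymal-like, 2.3% in astrocyte-like and 8.22% in fibroblast-like cells, and 17.1% and 16.5% were lower in endothelial-like and mural-like cells. Atf3 had the largest ratio of that list in choroid plexus epithelium-like cells (38.2 and 7.15 CPM, 2.42). In olfactory ensheathing-like cells the small heat shock proteins Hspb8 (15.8 and 6.68 CPM, 1.24) and Hspb2 were the 2 past 2-fold, both higher and from 30 and 18 and from 17 and 12 UMIs.

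**Figure D5:**
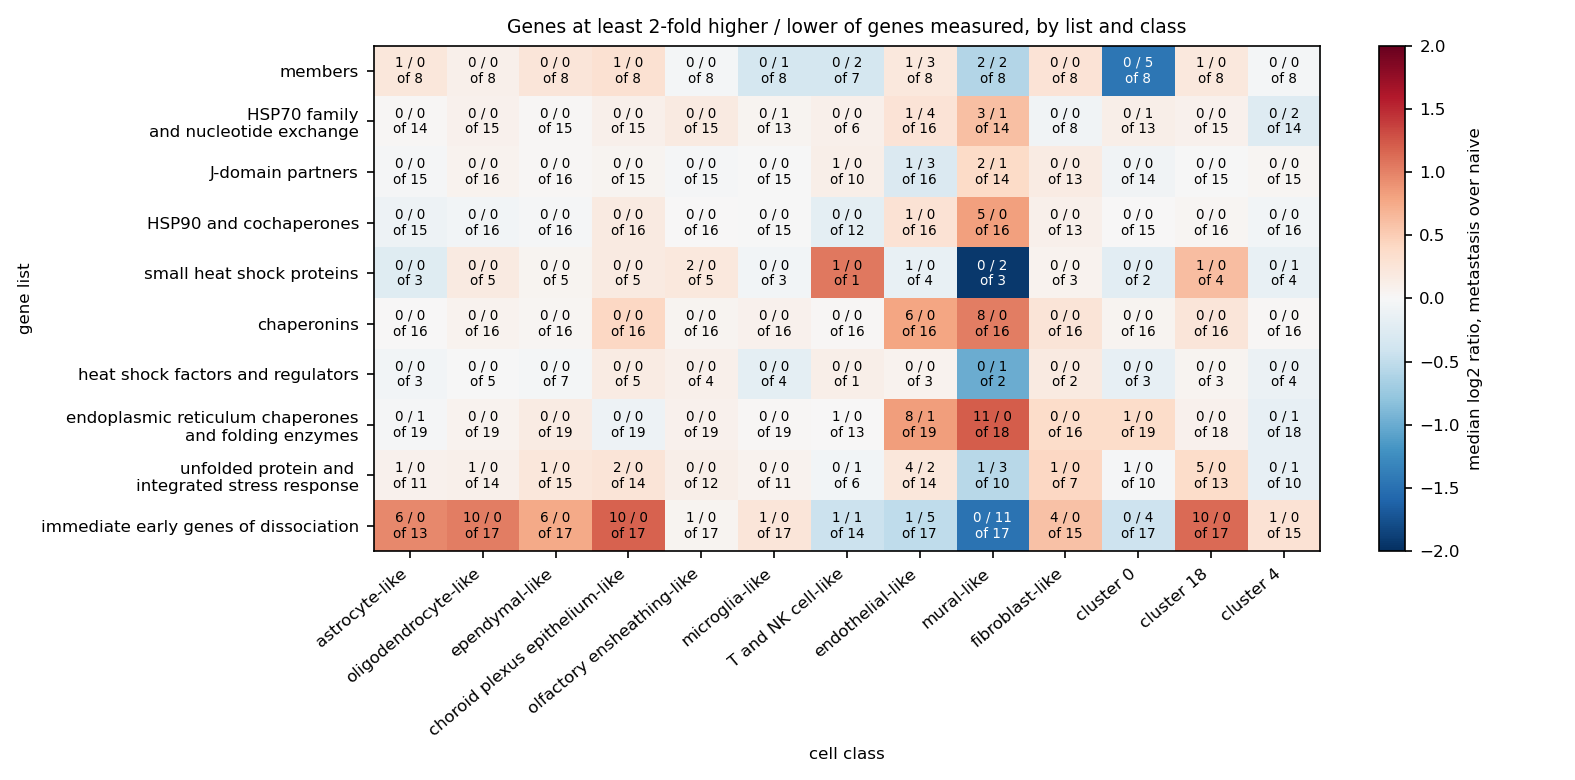
Median log2 ratio of metastasis over naive (colour) of the members and of 9 lists of related genes in each class compared, with the number of genes at least 2-fold higher and lower of those with at least 20 UMIs. Endoplasmic reticulum genes are red in mural-like (11 of 18 higher) and endothelial-like cells (8 of 19), and immediate early genes are red in oligodendrocyte-like and choroid plexus epithelium-like cells and blue in mural-like cells.

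Genes with the most similar pattern to a member were ranked by the correlation of log2(CPM + 10) over the same 29 points, among 9616 genes of at least 50 CPM in one of them. For Hspa1a they were Hspa1b (0.97), Serinc3 (0.89), Ppp1r15a (0.87), Fosb (0.86) and Junb (0.86). For Hsp90aa1 they were Gm12346 (0.94), which shares 15.3% of its 3' windows, then Hsph1 (0.88), Nudc (0.83), Drosha (0.82) and Cep131 (0.81). For Hspa8 they were Noc2l (0.89), Fbl (0.88), Utp3 (0.86), Snhg15 (0.86) and Dnajc2 (0.86). For Hspa5 they were Calr (0.85), Sdf2l1 (0.80), Pdia3 (0.79), Hsp90b1 (0.75) and Manf (0.73), all of which work in the endoplasmic reticulum. The points share libraries and free RNA, and these are descriptions.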

How the data were processed

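The deposited files hold whole-number UMI counts per gene and barcode, 1 matrix a library, unfiltered for cells. STARsolo and GRCm38 are named in the submitters' processing notes as what the authors used, and versions and counting settings are not given in the sources used here. Libraries were 10x 3' v3, per the labels' protocols, with about 10000 cells loaded each. Of 13937 and 14301 barcodes with at least 1000 UMIs in metastasis and naive, 13745 and 13995 passed the limits on genes and mitochondrial UMIs. Doublets with a Scrublet score above 0.25 were removed, 463 (3.37%) and 685 (4.89%); this score was set after the automatic threshold marked 0 cells in metastasis. Counts were scaled to 10000 per cell, and clusters came from Leiden at resolution 1 on 15 neighbours in 30 components of 2000 variable genes (scanpy 1.11.5), without integration. A cluster could be named where a marker list had a median log2 fold of at least 1 or at least 3 markers among the top 10 genes. The fold was taken against the mean of the other clusters. In either case at least 3 markers had to be past 2-fold, and no second list could come near. A cluster with both Chga and Cga among its top 10 genes was left unnamed, a rule added after clustering. The limits were adjusted after the clusters were seen. Unnamed clusters held 4.85% and 4.32% of the UMIs of kept cells.

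CPM levels scale a gene's summed counts by the summed UMIs of a class. Their intervals are exact Poisson, those of ratios exact conditional binomial, and those of shares exact Clopper-Pearson (scipy 1.17.1). Each is at 95% and covers counting error only. Free RNA came from 9467 and 7224 barcodes with 256869 and 271390 UMIs. Its part in a class was estimated from the marker lists of other classes, as the median ratio of their summed CPM in the class to that in free RNA. The ratio and its interval were tested on simulated Poisson counts with known changes, for astrocyte, oligodendrocyte and ependymal-like cells. Poisson counts are what the interval itself assumes. The simulation therefore could not show how the interval holds where cells vary more than plain counting, as they did for Hspa1a. Filtering, clustering, naming, thinning and the free RNA estimate were not simulated. The genes named from a list were up to 4 past 2-fold in a class, by size, and the 5 most similar genes of 4 members. The members, the 9 gene lists and the 19 marker lists were chosen with earlier results of these data known. Other limits on barcodes, the keeping of doublets, and other clustering, naming, weighting, scaling and free RNA settings were tried.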

Additional observations from a re-analysis of the deposited data

Results flagged for a closer look

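For 3 members the log2 ratio of metastasis over naive passed 2-fold upward in 1 class and downward in others. The difference between the classes was not tested, and with 1 library a group it could not be.

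Hspa1a had 1.06 in astrocyte-like cells but -2.30 in T and NK cell-like, -2.10 in endothelial-like and -1.76 in mural-like cells and -1.72 in cluster 0. Its astrocyte-like level did not exceed the free RNA estimate in either library. Hspa1b had 1.24 in choroid plexus epithelium-like cells but -2.19 in T and NK cell-like and -1.70 in endothelial-like cells and -2.02 in cluster 0. Hspb1 had 1.95 in cluster 18 but -1.29 in microglia-like and -1.84 in endothelial-like cells and -2.64 in cluster 0. Most Hspb1 UMIs of cluster 18 in metastasis came from the same cell, and with equal weight for each cell the ratio was within 2-fold. The microglia-like ratio of Hspb1 was within 2-fold with doublets kept. Within endothelial-like cluster 17, held by both libraries, the ratios were 0.39 for Hspa1a, 0.27 for Hspa1b and -0.20 for Hspb1.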

How the results depend on the processing

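No paired analysis was possible because each group is 1 library. Of the 10 named classes' pairs, 5 were at least 2-fold higher; with equal weight for each cell 3 were, and the other alternatives gave 4 to 7. The 8 lower pairs became 4 with doublets kept, where 9 classes had a value, and 7 to 10 under the other alternatives. Within the endothelial-like cluster held by both libraries, an alternative added after seeing the data, the HSP70 pair turned direction, to 0.39 for Hspa1a and 0.27 for Hspa1b. Subtracting free RNA moved 35 of 83 ratios by more than their counting interval, among them Hspa5 in mural-like cells to 4.99, Hspa8 there to 3.62 and Hspa1a in choroid plexus epithelium-like cells to 8.52, where the subtraction left little of the naive level. Naming each cell by its own markers moved 19 of 79, a minimum of 2000 UMIs 14 of 55, resolution 2 moved 11 of 79, and equal weight 10 of 103. Resolution 0.5, leaving out shared barcodes, leaving out mitochondrial and ribosomal genes from the scale, and leaving out the top cell moved none. Hspa1a in astrocyte-like cells ranged from 0.67 without the top cell to 2.09 at 2000 UMIs. The cause of these shifts between settings was not tested. Depth limited Hspb1 in T and NK cell-like cells, under 20 UMIs, and Dnajb1 in mural-like cells, 29 and 18 UMIs.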
